A study of Homo sapiens with 6 samples.

Results

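Most of the genes described here encode proteins that help choose which exons enter a messenger RNA. All were measured in A549 cells treated with Comp.4, with Comp.2 or with vehicle only. HNRNPU-AS1 is an antisense RNA by its name. LENG8 was included by symbol, with no role in exon choice shown by these data. Members were taken by symbol from the platform annotation: HNRNP and SRSF symbols, CLK1 to CLK4, TRA2A, TRA2B and LENG8, where a probe set (the group of probes that gives 1 value) listed a single symbol, without pseudogenes. This gave 37 genes of 22395 with such a probe set, each with 1 probe set: 19 hnRNP protein genes, 11 SR protein genes, CLK2, CLK3, CLK4, TRA2A, TRA2B, LENG8 and HNRNPU-AS1. Another 6 probe sets carried a matching symbol beside that of a different gene, among them those with HNRNPK and CLK1, and were left out, as were 5 pseudogene probe sets.

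A549 is an established line from a human lung adenocarcinoma, and it is the 1 line of the study. The labels give 3 groups of 2 arrays each: 2 µM Comp.4, 2 µM Comp.2, and vehicle with no compound. Per the labels' protocols, treatment began 24 h after plating and RNA was taken 2 days after that. The series title describes histone acetyltransferase inhibitors directed at DNA sequences, and both compounds are known here by code name only.

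Pre-mRNA splicing is steered by proteins that bind exons and introns. SR proteins carry stretches rich in serine and arginine, mostly bind exonic enhancers and favour inclusion of the exon, and CLK kinases phosphorylate those stretches in the nucleus. The hnRNP proteins coat nascent transcripts and often oppose SR proteins by masking splice sites. Many genes of both families control their own level through exons whose inclusion sends the transcript to nonsense-mediated decay. The values here sum probes over a whole transcript, so they show total level and not the isoform.

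Within a group the arrays correlated at 0.992 to 0.9942 over all probe sets, and array medians lay at 4.55 to 4.56 on the log2 scale. The labels do not say that the 2 arrays of a group came from separate cultures, so a p-value here reflects the spread between 2 arrays of a group, and that spread may be only technical. All 6 epithelial markers checked (log2 levels 6.57 to 10.23) and all 7 genes known to be high in A549 through its mutant KEAP1 (7.51 to 12.35) lay above the median gene, at 5.35. PTPRC, CD3E and LYZ of the leukocyte markers lay between 2.69 and 3.50, and the 3 endothelial markers between 4.02 and 4.52. The fibroblast markers lay at 4.22 to 5.44, with COL1A1 just above the median gene. CD68, a lysosomal gene listed as a leukocyte marker, lay at 8.95, well above the median gene. It was the 1 marker that passed in a comparison (log2 difference 0.67 for Comp.2 against vehicle).

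Comp.4 was set against vehicle to ask which splicing regulators it altered. HNRNPU-AS1 fell, and no protein-coding member passed the threshold, an adjusted p of at most 0.05 over all 22395 genes (limma, Benjamini-Hochberg). HNRNPC and HNRNPA1, which encode abundant RNA-binding proteins, and LENG8 had the next larger log2 differences that kept the 2 groups apart on every array. CLK and TRA2 genes had log2 differences between -0.09 and 0.03. The plot of levels on the 6 arrays shows these genes.

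HNRNPU-AS1 is named as an antisense RNA of HNRNPU, and its strand was not checked here. Its log2 levels were 5.96 and 5.87 on the Comp.4 arrays, 6.74 and 6.71 on the Comp.2 arrays and 6.91 and 6.81 on the vehicle arrays. Both Comp.4 arrays lay below the other 4. The RNA was 1.92-fold lower under Comp.4 than under vehicle (log2 -0.94, SE 0.076, 95% interval -1.12 to -0.76, adjusted p = 0.0265 by limma). The call ended in the fit of those 2 groups alone, which called 0 of all genes. Without any 1 of the 6 arrays the log2 difference was -0.99 to -0.89. Those fits leave 1 array in a group, so they cannot settle the call.

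HNRNPU, the gene that HNRNPU-AS1 is named for, encodes a nuclear matrix protein that binds RNA and chromatin. It stood at 10.56 and 10.56 under Comp.4, 10.76 and 10.70 under Comp.2 and 10.81 and 10.82 under vehicle (log2). Comp.4 arrays were again the lowest, but the log2 difference from vehicle was only -0.25 (95% interval -0.42 to -0.09, adjusted p = 0.163 by limma). The sources used here give neither the strand that the HNRNPU-AS1 probe set reads nor whether the labelled material keeps strands apart.

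**Figure D1:**
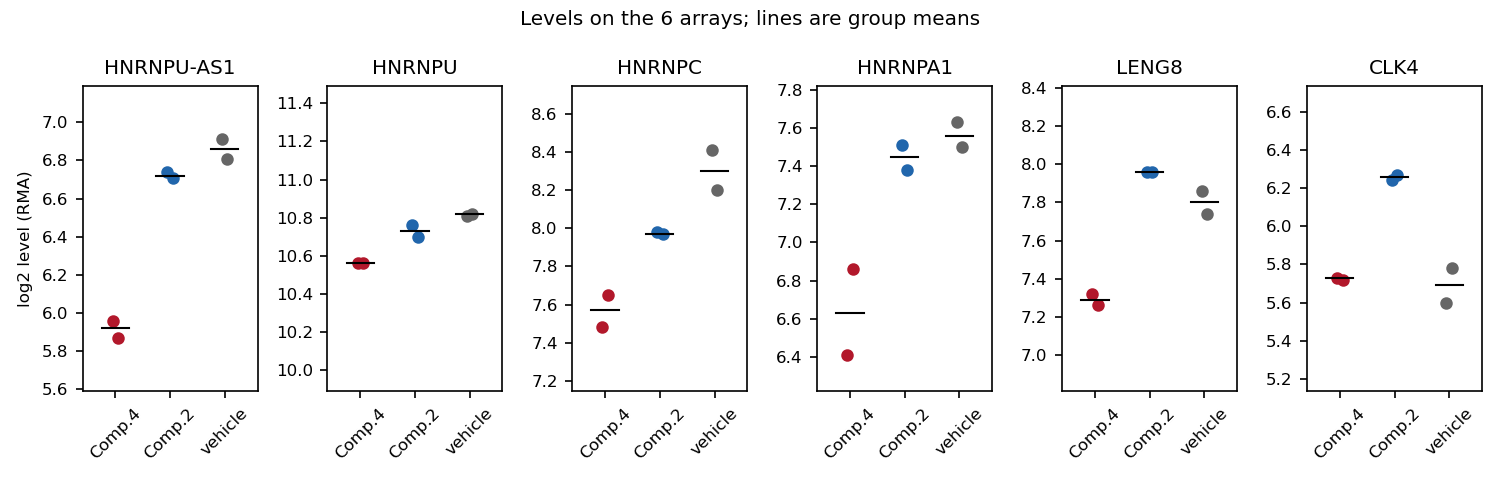
Log2 levels (RMA) of 6 genes on each array, with Comp.4, Comp.2 and vehicle from left to right; points are arrays, lines are group means, and every panel spans the same height of the scale. HNRNPU-AS1, HNRNPU, HNRNPC, HNRNPA1 and LENG8 have both Comp.4 arrays below the other 4, while CLK4 has both Comp.2 arrays above its other 4.

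HNRNPC encodes a protein that binds uridine tracts and represses exons derived from Alu elements. Its log2 levels were 7.48 and 7.65 under Comp.4, 7.98 and 7.97 under Comp.2 and 8.41 and 8.20 under vehicle. The 3 groups did not overlap, with Comp.4 lowest and Comp.2 between. The log2 difference between Comp.4 and vehicle was -0.74 (SE 0.098, 95% interval -0.97 to -0.50, adjusted p = 0.0638 by limma), so it missed the threshold.

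HNRNPA1 encodes a shuttling splicing repressor. It stood at 6.41 and 6.86 under Comp.4, 7.51 and 7.38 under Comp.2 and 7.63 and 7.50 under vehicle (log2). The Comp.4 arrays were low but far from each other, with an SD of 0.32, and without either of them the log2 difference from vehicle was -1.16 or -0.70. With all arrays it was -0.93 (SE 0.149, 95% interval -1.28 to -0.57, adjusted p = 0.0783 by limma).

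HNRNPA1 has near-identical processed copies, so probes of one can take up transcripts of another and the gene's value is uncertain. The probe set named for the copy HNRNPA1P10 had a log2 difference of -0.19 between Comp.4 and vehicle (95% interval -0.36 to -0.02). That of HNRNPA1P33 had -0.29 (95% interval -0.54 to -0.05) and that of the retrogene HNRNPA1L2, itself a member, -0.27 (95% interval -0.67 to 0.13). Each pointed down, by less than the HNRNPA1 probe set, and the differences among these probe sets were not tested. Mean log2 levels over the arrays were 11.83 for the HNRNPA1P10 probe set, 8.88 for HNRNPA1P33, 7.21 for HNRNPA1 and 4.68 for HNRNPA1L2. The brightest of these probe sets thus had the smallest difference.

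LENG8 is named for its place in the leukocyte receptor cluster of chromosome 19. Its log2 levels were 7.32 and 7.26 under Comp.4, 7.96 and 7.96 under Comp.2 and 7.86 and 7.74 under vehicle. Comp.4 was lowest and Comp.2 highest, with no overlap. Against vehicle, Comp.4 had a log2 difference of -0.51 (SE 0.076, 95% interval -0.69 to -0.33, adjusted p = 0.0749 by limma).

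Among the other hnRNP genes, HNRNPH1 encodes a protein that binds runs of guanosine, and its log2 levels were 7.68 and 7.71 under Comp.4, 7.98 and 7.93 under Comp.2 and 8.07 and 7.99 under vehicle. Comp.4 stood apart below, with a log2 difference from vehicle of -0.34 (95% interval -0.51 to -0.16, adjusted p = 0.116 by limma). Its relatives HNRNPH3 and HNRNPF, which bind the same kind of run, had -0.14 and 0.05. HNRNPA2B1, a close relative of HNRNPA1, stood at 8.78 and 8.62 under Comp.4, 8.93 and 8.89 under Comp.2 and 9.03 and 9.03 under vehicle (log2). The 3 groups were in that order without overlap, and Comp.4 differed from vehicle by -0.33 (95% interval -0.52 to -0.14, adjusted p = 0.14 by limma). HNRNPA0, of the same subfamily, had -0.03. HNRNPA3, with the lowest mean level of the hnRNP genes and well below the median gene, had -0.47 with a 95% interval that reached 0.

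HNRNPUL1, a relative of HNRNPU with the highest mean level of the hnRNP genes, had a log2 difference of -0.17 between Comp.4 and vehicle, and 8 further hnRNP genes lay between -0.12 and 0.15. In that group were HNRNPL, which binds CA repeats (0.10), its relative HNRNPLL (0.15), HNRNPM (-0.12), HNRNPR (-0.07), and HNRNPD, whose protein AUF1 binds AU-rich elements (-0.10).

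Among the SR genes, none had a log2 difference beyond -0.34 between Comp.4 and vehicle. SRSF11 stood at 6.76 and 6.56 under Comp.4, 7.07 and 6.88 under Comp.2 and 7.07 and 6.92 under vehicle, a log2 difference from vehicle of -0.34 (95% interval -0.59 to -0.08, adjusted p = 0.205 by limma). SRSF10, a regulator that represses splicing when dephosphorylated in heat shock, stood at 5.38 and 5.26 under Comp.4, 5.50 and 5.55 under Comp.2 and 5.57 and 5.69 under vehicle, with -0.31 against vehicle (adjusted p = 0.159 by limma). Comp.4 arrays of both genes lay below the other 4.

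SRSF1, the founding SR protein gene and the one with the highest mean level here, stood at 10.76 and 10.79 under Comp.4, 10.86 and 10.96 under Comp.2 and 10.97 and 10.97 under vehicle (log2). Its Comp.4 arrays were the lowest, with -0.20 against vehicle (95% interval -0.37 to -0.02). SRSF4 had -0.22 and its relatives SRSF5 and SRSF6 had -0.14 and -0.07. SRSF2, a protein of nuclear speckles, had -0.05, SRSF8 -0.12, and SRSF3 and SRSF7, which also serve mRNA export, 0.06 and 0.05. SRSF12, the dimmest SR gene, had 0.08.

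Counts over the members were as follows. Of the 37 genes 1 was lower and 0 were higher under Comp.4 than under vehicle at the adjusted threshold (limma), where 0.0938% and 0.0536% of all genes were. At an unadjusted p under 0.05, 12 were lower, against 7.88% of all genes, and 0 were higher, against 8.64%. These 12 were 6 of the 19 hnRNP genes, 4 of the 11 SR genes, LENG8 and HNRNPU-AS1. Nearly all members are bright, and among genes above the median level 12 of 33 members were lower at an unadjusted p under 0.05, against 15.3% of those genes, and 0 were higher, against 12.5%. Both Comp.4 arrays lay below both vehicle arrays for 25 members, against 22.2% of all genes, and above them for 2, against 27.2%.

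The median log2 difference between Comp.4 and vehicle was -0.10 over the members and 0.02 over all genes. It was -0.12 over the hnRNP genes, -0.12 over the SR genes and 0.03 over the CLK genes. The call rule matters to these counts: with a variance that follows the level 9 members were lower under Comp.4, against 3.3% of all genes, and among genes above the median level 8 of 33 were, against 4.46%. HNRNPC, HNRNPA1, HNRNPH1, HNRNPA2B1, HNRNPU, LENG8 and HNRNPU-AS1 were called under both of these settings.

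**Figure D2:**
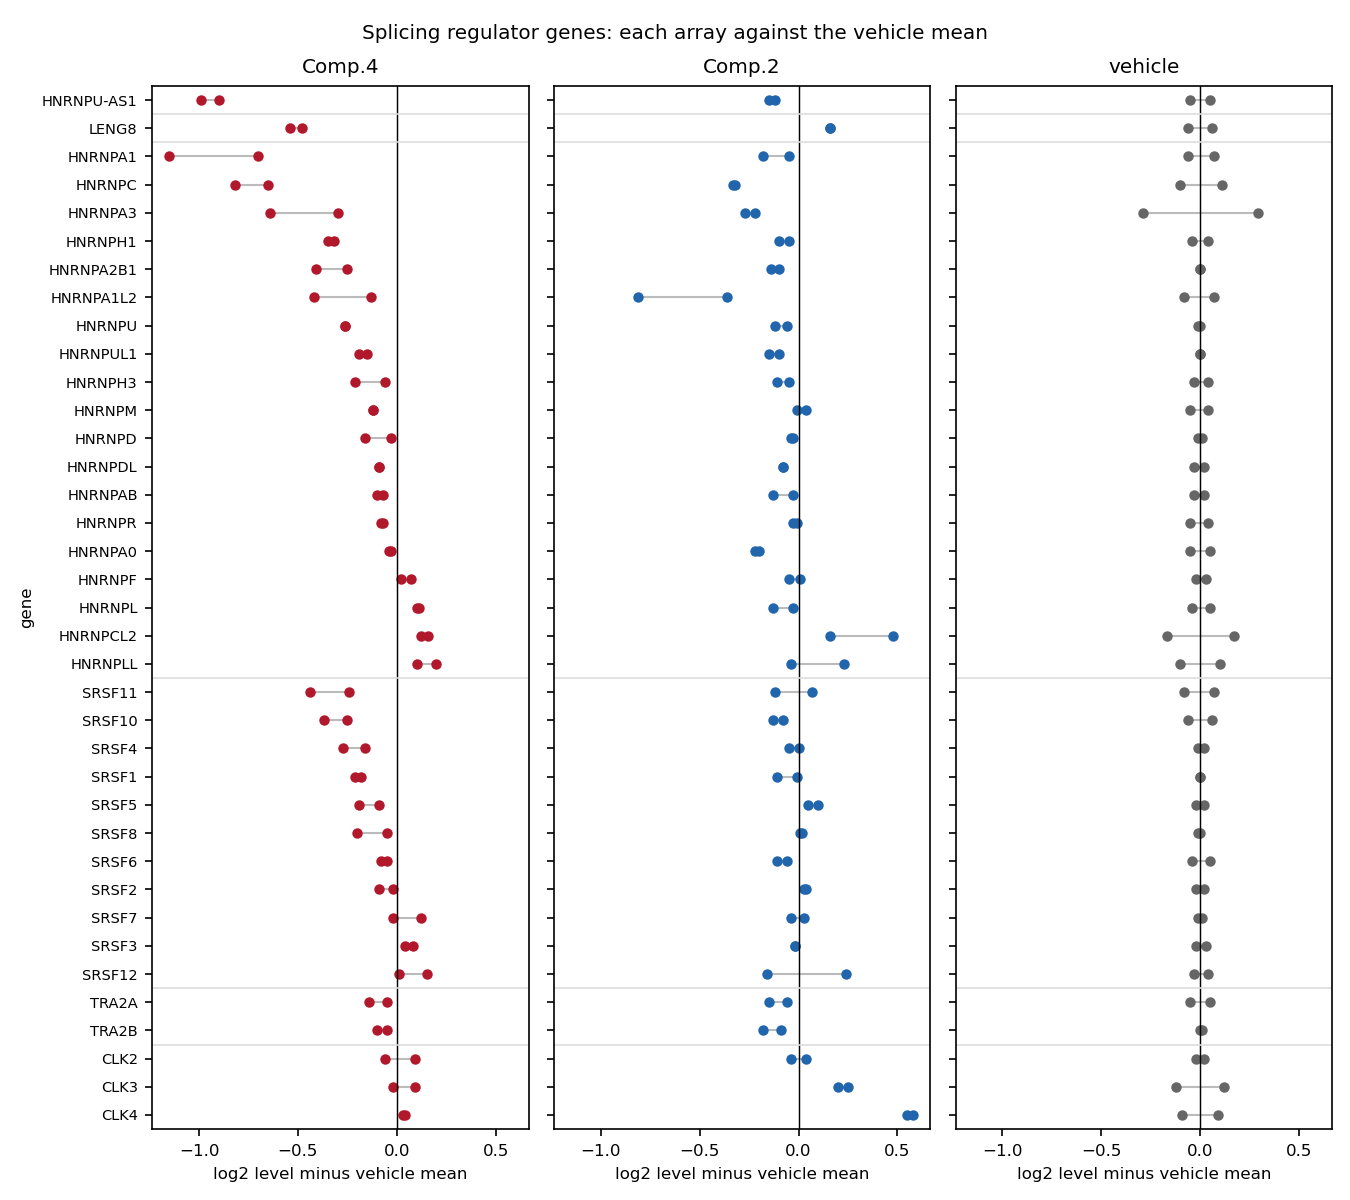
Log2 level of each array minus the vehicle mean of the same gene, for the 37 genes, with Comp.4, Comp.2 and vehicle from left to right; a grey line joins the 2 arrays of a group, and genes are grouped by role. Both Comp.4 arrays lie below both vehicle arrays for 25 genes, against 22.2% of all genes, and above them for 2, against 27.2%. CLK4 stands apart under Comp.2.

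Comp.2 was set against vehicle with the same vehicle arrays. No member passed under Comp.2. CLK4, which encodes 1 of the SR protein kinases, had the largest positive log2 difference of the members, and HNRNPA1L2, HNRNPC and HNRNPA0 the negative ones with an unadjusted p under 0.05. SR genes lay between -0.11 and 0.08, with SRSF10 at -0.11, SRSF6 at -0.09, SRSF1 at -0.06 and SRSF5 at 0.08.

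CLK4 stood at 5.73 and 5.72 under Comp.4, 6.24 and 6.27 under Comp.2 and 5.60 and 5.78 under vehicle (log2). Both Comp.2 arrays lay above the other 4, while the Comp.4 arrays lay within the range of vehicle. The log2 difference between Comp.2 and vehicle was 0.56 (SE 0.084, 95% interval 0.36 to 0.76, adjusted p = 0.0897 by limma), and it missed the threshold. It passed with a variance that follows the level (adjusted p = 0.0182), where 1.01% of all genes were higher, and among genes above the median level (adjusted p = 0.0154), where 1.38% were (limma).

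CLK3, a kinase of the same family, stood at 7.95 and 8.06 under Comp.4, 8.22 and 8.17 under Comp.2 and 8.09 and 7.85 under vehicle (log2), with Comp.2 again highest, but its log2 difference from vehicle was only 0.22 (95% interval -0.02 to 0.45, adjusted p = 0.472 by limma). CLK2 stood at 6.30 and 6.15 under Comp.4, 6.17 and 6.25 under Comp.2 and 6.19 and 6.23 under vehicle, and its groups overlapped.

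Of the hnRNP genes, HNRNPC had a log2 difference of -0.33 between Comp.2 and vehicle (95% interval -0.56 to -0.10, adjusted p = 0.316 by limma). HNRNPA0 stood at 9.0 and 9.01 under Comp.4, 8.84 and 8.82 under Comp.2 and 8.99 and 9.09 under vehicle, so that Comp.2 alone lay lower, with a log2 difference of -0.21 from vehicle (adjusted p = 0.38 by limma). HNRNPA1L2, a dim probe set, stood at 4.84 and 4.55 under Comp.4, 4.61 and 4.16 under Comp.2 and 5.04 and 4.89 under vehicle. The Comp.2 arrays had an SD of 0.32, and the log2 difference from vehicle was -0.58 (95% interval -0.98 to -0.19, adjusted p = 0.306 by limma). Without one or the other Comp.2 array it was -0.81 or -0.36. HNRNPA3 had -0.25. HNRNPCL2, also dim, had 0.32 (95% interval -0.02 to 0.66), and its Comp.2 and vehicle arrays overlapped. It is a close copy of HNRNPC, which had -0.33. Whether the HNRNPCL2 probes take up transcripts of that gene was not tested.

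The TRA2 genes encode proteins that bind enhancers rich in GAA. TRA2B stood at 9.14 and 9.09 under Comp.4, 9.01 and 9.10 under Comp.2 and 9.20 and 9.19 under vehicle (log2). TRA2A stood at 8.29 and 8.38 under Comp.4, 8.28 and 8.37 under Comp.2 and 8.38 and 8.48 under vehicle. Vehicle had the highest mean for both genes, by at most 0.14 on the log2 scale, and neither passed in a comparison. LENG8 had a log2 difference of 0.16 and HNRNPU-AS1 of -0.13 between Comp.2 and vehicle.

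At the adjusted threshold 0 members were higher and 0 lower under Comp.2 (limma), where 0.134% and 0.0625% of all genes were. At an unadjusted p under 0.05, 1 member was higher, against 6.23% of all genes, and 3 were lower, against 4.94%. Among genes above the median level 3 of 33 members were higher at that p, against 9.25% of those genes, and 2 lower, against 9.35%. Arrays did not overlap for 17 lower members, against 21% of all genes, and for 6 higher ones, against 22.7%. The median log2 difference was -0.06 over the members and 0 over all genes, and -0.09 over the hnRNP genes. Since both comparisons use the same vehicle arrays, a deviation of those arrays enters each.

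**Figure D3:**
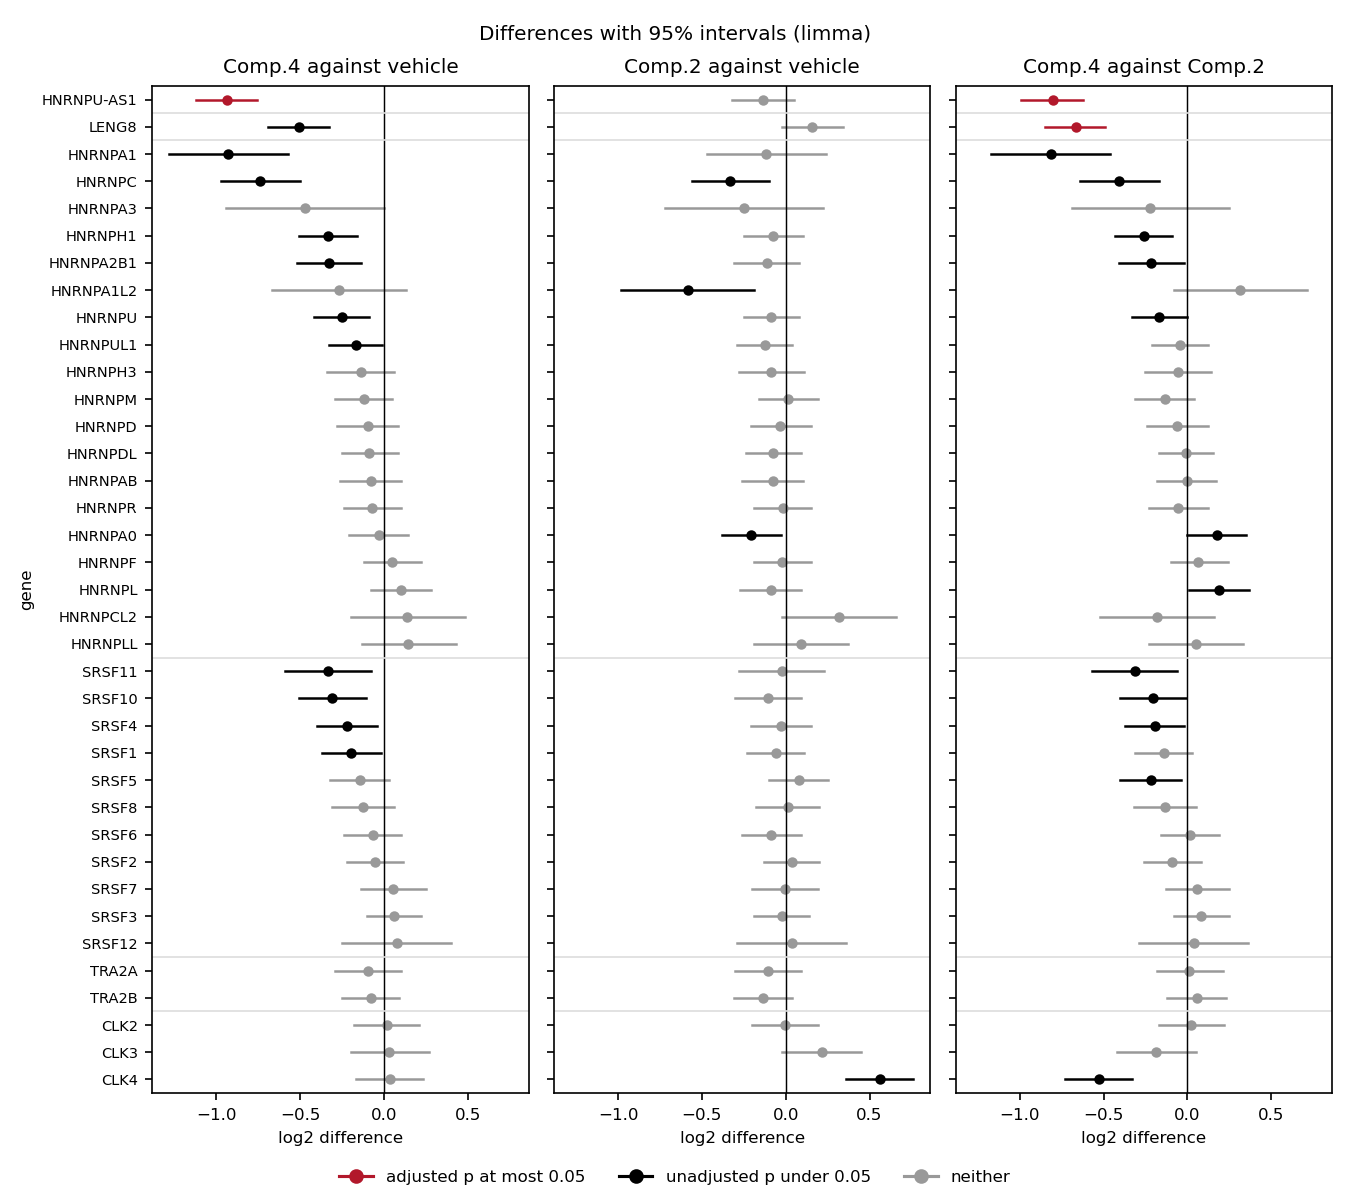
Log2 differences with 95% intervals (limma) of the 37 genes in panels, left to right, for Comp.4 over vehicle, Comp.2 over vehicle and Comp.4 over Comp.2; colour marks the adjusted and the unadjusted threshold. HNRNPU-AS1 passes in both panels of Comp.4 and LENG8 in the right panel, and CLK4 lies at 0.03, 0.56 and -0.53 from left to right.

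Comp.4 was then set against Comp.2 at the same dose and day, which asks whether the compounds differ. LENG8 and HNRNPU-AS1 were lower under Comp.4 than under Comp.2. LENG8 was 1.59-fold lower (log2 -0.67, SE 0.076, 95% interval -0.85 to -0.49, adjusted p = 0.0315 by limma), at a mean of 7.29 ± 0.038 under Comp.4 and 7.96 ± 0.00086 under Comp.2 (log2, SD, n = 2 arrays each). HNRNPU-AS1 was 1.75-fold lower (log2 -0.80, SE 0.076, adjusted p = 0.024 by limma), at 5.92 ± 0.062 under Comp.4 and 6.72 ± 0.020 under Comp.2.

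Both calls ended in the fit of the 2 groups alone, which called 0 of all genes. They also ended when all 53617 probe sets were tested together, a fit that called 1 lower and 1 higher. In the fits without 1 array the log2 difference was -0.69 to -0.64 for LENG8 and -0.85 to -0.76 for HNRNPU-AS1. Those fits leave 1 array in a group, so they cannot settle the calls.

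HNRNPA1 had the most negative log2 difference of the members but did not pass, at -0.81 (95% interval -1.17 to -0.46, adjusted p = 0.0965 by limma). CLK4 had -0.53 (95% interval -0.73 to -0.33, adjusted p = 0.0715) and HNRNPC -0.41 (95% interval -0.64 to -0.17, adjusted p = 0.151), and neither passed (limma). HNRNPH1 had -0.26, SRSF11 -0.31, SRSF5 -0.22, SRSF10 -0.20 and SRSF4 -0.20. In the other direction HNRNPL had 0.19, with 10.42 and 10.41 under Comp.4, 10.18 and 10.28 under Comp.2 and 10.27 and 10.36 under vehicle (log2). HNRNPA0 had 0.18, and the dim HNRNPA1L2 had 0.31, which was 0.54 or 0.09 without one or the other Comp.2 array.

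For other members the interval of the difference between the compounds lay around 0. HNRNPDL had a log2 difference of -0.01 (95% interval -0.17 to 0.15), HNRNPAB 0.00 (-0.18 to 0.17), SRSF6 0.02 (-0.16 to 0.19) and TRA2A 0.01 (-0.18 to 0.21). CLK2 had 0.02 (-0.17 to 0.22) and TRA2B 0.06 (-0.12 to 0.23). Such an interval sets a limit to the difference and does not show that the compounds act alike.

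Of the 37 members 2 were lower and 0 higher under Comp.4 than under Comp.2 (limma), where 0.179% and 0.192% of all genes were. At an unadjusted p under 0.05, 12 were lower, against 7.45% of all genes, and 2 higher, against 7.52%. Among genes above the median level 12 of 33 members were lower at that p, against 13.7% of those genes, and 2 higher, against 11.9%. Arrays did not overlap for 22 lower members, against 21.6% of all genes, and for 4 higher ones, against 23.7%. The median was -0.09 over the members and 0.01 over all genes, and -0.14 over the SR genes. With a variance that follows the level 7 members were lower, against 2.64% of all genes, and 1 higher, HNRNPL, against 2.16%. Among genes above the median level 5 were lower, against 3.5% of those genes: HNRNPU-AS1, LENG8, CLK4, HNRNPA1 and HNRNPC.

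**Figure D4:**
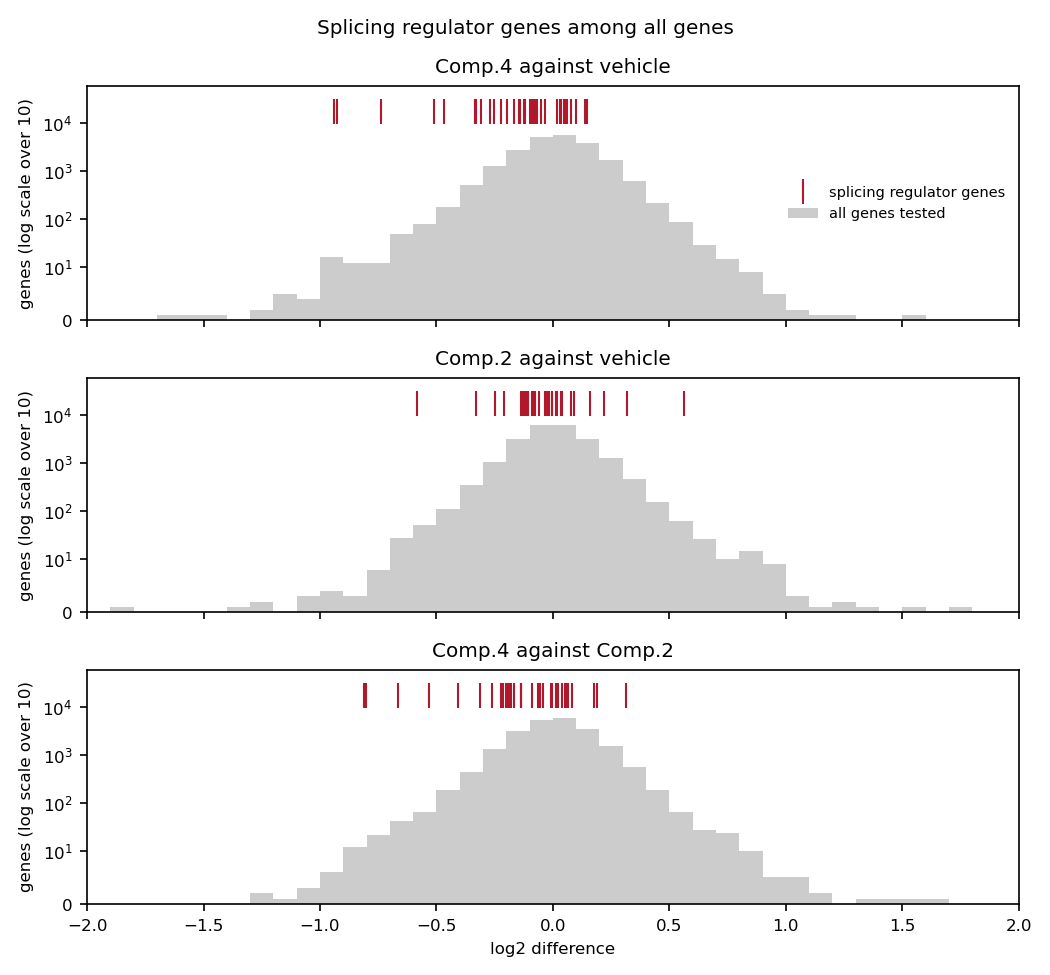
Distribution of log2 differences over all 22395 genes (grey bars, count on an axis that is linear to 10 and logarithmic above) with the 37 splicing regulator genes as red marks, in 3 comparisons. Under Comp.4 the marks reach from -0.94 to 0.15 and the lower tail holds HNRNPU-AS1, HNRNPA1 and HNRNPC, and under Comp.2 they reach from -0.58 to 0.56.

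Promoter sequences are shown for HNRNPC, LENG8 and CLK4, 3 protein-coding members that stood in different orders on the arrays: HNRNPC lowest under Comp.4 and between under Comp.2, LENG8 lowest under Comp.4 and highest under Comp.2, and CLK4 high under Comp.2 alone. Each is 300 bases from RefSeq on GRCh38.p14, from 250 bases before the start of the gene to 50 after it, 5′ to 3′ on the strand of the gene. Capitals mark matches, on either strand, to the GC box GGGCGG, the CCAAT box CCAAT, the ETS core CCGGAAG, the TATA box TATAAA and the CRE core TGACGTCA. A match describes the letters and is not a site shown to be bound. HNRNPC lies at chr14:21269393-21269692 on the minus strand, LENG8 at chr19:54448949-54449248 on the plus strand and CLK4 at chr5:178627001-178627300 on the minus strand.
HNRNPC: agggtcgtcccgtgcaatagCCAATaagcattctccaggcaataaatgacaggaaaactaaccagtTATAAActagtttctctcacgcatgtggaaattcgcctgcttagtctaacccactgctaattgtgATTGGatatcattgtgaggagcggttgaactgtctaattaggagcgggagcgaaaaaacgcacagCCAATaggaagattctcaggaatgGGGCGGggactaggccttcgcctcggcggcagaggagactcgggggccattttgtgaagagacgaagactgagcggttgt
LENG8: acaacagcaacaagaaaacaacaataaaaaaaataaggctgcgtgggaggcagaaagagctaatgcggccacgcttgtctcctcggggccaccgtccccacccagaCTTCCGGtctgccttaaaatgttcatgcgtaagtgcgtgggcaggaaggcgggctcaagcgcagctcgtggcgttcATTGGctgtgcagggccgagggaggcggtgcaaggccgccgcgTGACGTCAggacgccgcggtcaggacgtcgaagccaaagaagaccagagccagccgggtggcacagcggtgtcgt
CLK4: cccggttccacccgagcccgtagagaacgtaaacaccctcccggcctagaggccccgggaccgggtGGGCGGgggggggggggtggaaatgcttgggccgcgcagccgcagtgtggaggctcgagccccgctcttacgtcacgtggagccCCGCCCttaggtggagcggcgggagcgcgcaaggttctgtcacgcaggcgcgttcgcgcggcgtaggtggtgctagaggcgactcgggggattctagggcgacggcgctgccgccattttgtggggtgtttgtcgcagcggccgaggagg

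The HNRNPC window held 3 CCAAT boxes, 1 GC box and 1 TATA box at 49.3% G and C. LENG8 held 1 CCAAT box, 1 ETS core and 1 CRE core at 60.3%, and CLK4 held 2 GC boxes at 70.7%. Promoters were matched for 33 of the 37 members, those of HNRNPA1, HNRNPU-AS1, SRSF2 and TRA2A apart. The median share of G and C was 63.7% over the 33 and 58.3% over 27305 promoters of the same length, and CpG dinucleotides had medians of 29 and 14. The GC box stood in 63.6% of the 33 and 44.6% of all, the CCAAT box in 48.5% and 35.7%, the ETS core in 18.2% and 10.7%, and the TATA box in 15.2% and 12%. The CRE core stood in 1 of the 33, LENG8, and in 1.98% of all promoters. The 27305 promoters were not matched to the members by level, and nearly all members are bright. Whether bright genes at large share these features was not tested.

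Other genes of splicing were read from 7 lists, chosen with earlier results of these arrays known, which held 106 symbols, 94 of them measured. None of the 94 passed in any of the 3 comparisons (limma), where 0.0536% to 0.192% of all genes did in each direction. For Comp.4 against vehicle 31 were lower and 3 higher at an unadjusted p under 0.05, where 7.88% and 8.64% of all genes were. For Comp.2 against vehicle 8 were lower and 1 higher, against 4.94% and 6.23% of all genes. For Comp.4 against Comp.2, 15 were lower and 5 higher, against 7.45% and 7.52%.

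These genes too are mostly bright, and 85 of the 94 lay above the median level. In the fit of such genes alone 37 of the 85 were lower and 3 higher for Comp.4 against vehicle at an unadjusted p under 0.05, against 15.3% and 12.5% of those genes. For Comp.2 against vehicle 10 were lower and 1 higher, against 9.35% and 9.25%, so the share lower (11.8%) was near that of all bright genes. For Comp.4 against Comp.2, 20 were lower and 5 higher, against 13.7% and 11.9%. At the adjusted threshold that fit (limma) called 13 lower, SRRM2 and PNN among them, and 1 higher, SF3B5, for Comp.4 against vehicle, against 4.46% and 3.04% of bright genes. It called 8 lower and 1 higher, SNRPB, for Comp.4 against Comp.2, against 3.5% and 2.89%. It called 0 of the 85 for Comp.2 against vehicle, where 0.706% of bright genes were lower and 1.38% higher. The plot of other splicing genes by list gives every value.

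SR-related genes and genes of nuclear speckles, the bodies that store splicing factors, had the lowest median of the 7 lists, -0.27 for Comp.4 against vehicle and -0.29 for Comp.4 against Comp.2, against -0.05 for Comp.2 against vehicle. All 12 measured were below 0 in both comparisons of Comp.4, against 45.1% and 47.7% of all genes. At an unadjusted p under 0.05, 9 and 8 were lower, against 7.88% and 7.45% of all genes. All 12 lay above the median level, and of such genes 50.6% and 51% were below 0. In the fit of such genes alone 15.3% and 13.7% were lower at that p. Both comparisons use the same Comp.4 arrays, so a deviation of those arrays enters each. SRRM2, a scaffold of speckles, stood at 9.33 and 9.33 under Comp.4, 9.79 and 9.83 under Comp.2 and 9.84 and 9.88 under vehicle (log2). Its Comp.4 arrays lay well below the others, by -0.54 against vehicle (95% interval -0.70 to -0.37, adjusted p = 0.0632 by limma) and -0.48 against Comp.2 (adjusted p = 0.0593). PNN, a speckle protein gene, stood at 8.76 and 8.75 under Comp.4, 9.19 and 9.10 under Comp.2 and 9.22 and 9.15 under vehicle, with -0.43 against vehicle (adjusted p = 0.0868 by limma) and -0.39 against Comp.2. For Comp.2 against vehicle the larger values of the list were those of ACIN1 (-0.17) and BCLAF1 (-0.11).

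**Figure D5:**
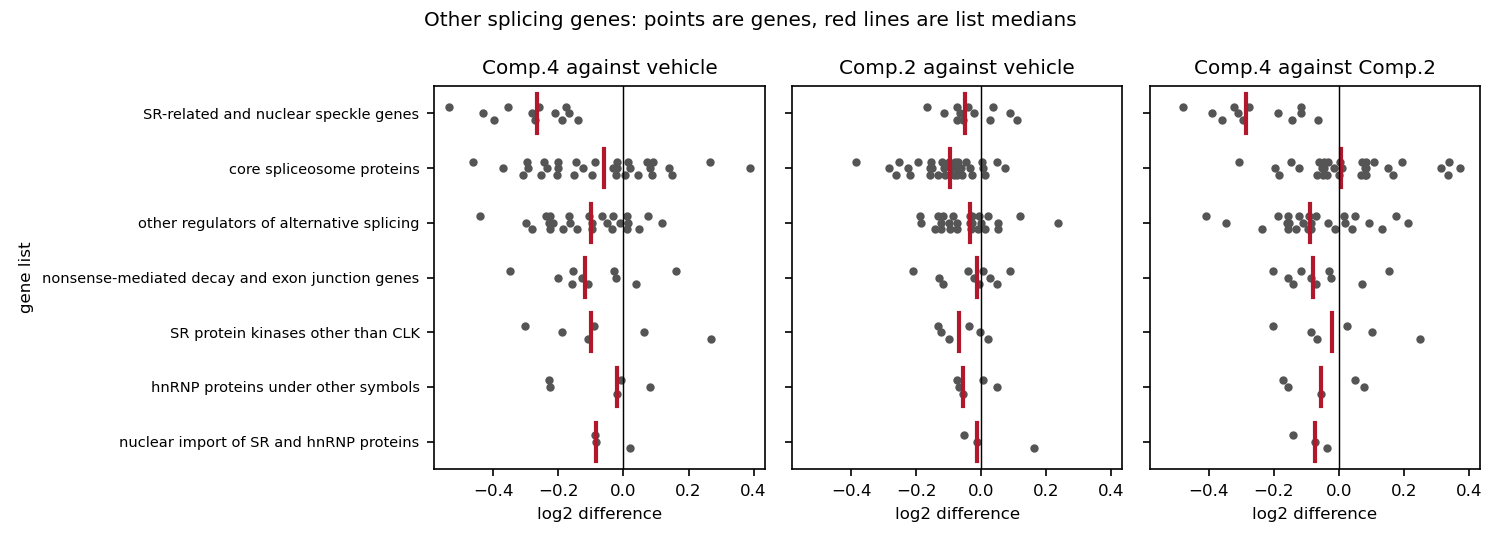
Log2 differences of the 94 other splicing genes by list (rows) and comparison (panels, in the same order as the text); points are genes and red lines are list medians. The SR-related and speckle genes all lie below 0 in both panels of Comp.4, where 45.1% and 47.7% of all genes do, with medians of -0.27 and -0.29.

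The 32 core spliceosome genes had a median of -0.06 for Comp.4 against vehicle and of -0.10 for Comp.2 against vehicle. Between Comp.4 and Comp.2 it was 0.01. Of these, SF3A2 of the U2 particle had -0.46 and SF3B5 0.39 for Comp.4 against vehicle. SNRPB, an Sm protein gene, stood at 10.31 and 10.26 under Comp.4, 9.87 and 9.95 under Comp.2 and 10.19 and 10.19 under vehicle, so that Comp.2 was lowest (0.37 for Comp.4 against Comp.2, adjusted p = 0.101 by limma). The dim SNRPG (mean log2 level 3.8) had -0.39 for Comp.2 against vehicle, and SNRPD2 0.34 for Comp.4 against Comp.2.

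The 26 other regulators of alternative splicing had a median of -0.10 for Comp.4 against vehicle. TIA1, which helps recruit the U1 particle, stood at 6.20 and 6.31 under Comp.4, 6.74 and 6.58 under Comp.2 and 6.63 and 6.76 under vehicle, with -0.44 against vehicle (adjusted p = 0.112 by limma). EWSR1 had -0.30 for Comp.4 against vehicle, RBM25 -0.35 for Comp.4 against Comp.2, and TARDBP 0.24 and RBM10 -0.19 for Comp.2 against vehicle. Among SR protein kinases other than CLK, DYRK1A had -0.30 and the dim SRPK3 (mean log2 level 4.86) 0.27 for Comp.4 against vehicle. SRPK2 had -0.13 and SRPK1 -0.12 for Comp.2 against vehicle. Between Comp.4 and Comp.2, SRPK3 had 0.25, DYRK1A -0.20 and TIA1 -0.41.

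The 10 measured genes of nonsense-mediated decay and the exon junction had a median of -0.12 for Comp.4 against vehicle, with CASC3 at -0.35 and UPF2 at -0.20. CASC3 had -0.21 and UPF2 -0.13 for Comp.2 against vehicle, and SMG5 -0.20 and SMG6 -0.16 for Comp.4 against Comp.2. The hnRNP proteins with other symbols had a median of -0.02 for Comp.4 against vehicle, PTBP1 and PCBP2 both at -0.23. Between Comp.4 and Comp.2 these had -0.16 and -0.17, and for Comp.2 against vehicle PTBP1 and PCBP1 both had -0.07. The import receptors TNPO1, TNPO2 and TNPO3, which carry hnRNP and SR proteins into the nucleus, had -0.09, 0.02 and -0.09 for Comp.4 against vehicle, and TNPO2 had 0.16 for Comp.2 against vehicle and -0.14 for Comp.4 against Comp.2.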

How the data were processed

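RNA of A549 cells was labelled and hybridised to Affymetrix whole-transcript arrays, per the labels' protocols. The authors deposited log2 levels from RMA, which subtracts background, equalises the arrays by quantiles and summarises probes; the submitters' processing notes name RMA and, with no step given, Expression Console 1.3.1 and Transcriptome Analysis Console 2.0. The arrays thus share 1 scale, and background makes differences of dim probe sets too small. No scanner files, scan dates or detection calls were used.

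The table held 53617 probe sets: 23871 list a single symbol, 1842 several, and 27904 are unnamed here. The brightest probe set stood for a gene. Entrez numbers updated 90 symbols through RefSeq's GRCh38.p14 table. The 3 contrasts were fitted on all 6 arrays with limma 3.58.1 in R 4.3.3 (3 residual and 3.71 prior degrees of freedom), two-sided, checked on simulated data. A permutation test of 2 against 2 arrays cannot go below p = 0.333, and none was run. The number of arrays limits the precision.

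Members and lists were chosen with earlier results of these data known. Genes were named where they passed, as every CLK, TRA2 and LENG8 gene, as the largest differences and the extreme levels of the hnRNP and SR genes, and as the largest differences of each list. Other members were named with their values in view. The alternatives are listed in the closing section.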

Additional observations from a re-analysis of the deposited data

How the results depend on the processing

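Across 17 alternatives, 1778 of 1872 values of single members kept their direction and their side of the threshold, 26 lost a call, 26 gained one and 42 turned sign. Members lower under Comp.4 than under vehicle numbered 8 among the brighter genes and 9 with a variance trend, against 1 as reported. Of the genes tested 4.46%, 3.3% and 0.0938% were lower there. The number was 0 with protein-coding genes only (a table without HNRNPU-AS1), with only the 2 groups compared, and with a replicate block. Those fits called 0, 0 and 4 lower of all genes they tested. The fits without 1 array leave 1 array in a group, so they cannot settle the calls. For Comp.2 against vehicle 1 member was higher among the brighter genes and 1 with a variance trend, where 1.38% and 1.01% of the genes tested were. For Comp.4 against Comp.2, 7 were lower and 1 higher with a variance trend, where 2.64% and 2.16% of all genes were. Among the brighter genes 5 were lower, against 3.5% of those genes, and with protein-coding genes only 1, against 0.194%. The number lower was 0 with all probe sets together, with only the 2 groups compared and with the replicate block. Those fits called 1, 0 and 0 lower of everything they tested. Fewer samples or fewer or more genes tested enter those fits by construction, and for the trend the cause was not tested. A robust variance, the mean of a gene's probe sets, every single-symbol probe set on its own and both scalings kept the counts of 1 and 2. The number in the replicate labels did not pair the arrays, since deviations of equal-numbered arrays correlated at -0.04 to 0.03. The member median was -0.11 to -0.08 without 1 array in turn for Comp.4 against vehicle, and -0.13 to -0.06 for Comp.4 against Comp.2 (-0.09 as reported). For Comp.2 against vehicle it was -0.06 to -0.04, where quantile normalization over the genes gave -0.02 against -0.06 as reported. Signs turned only for members with no call. Centring on the protein-coding median gave SRSF8 -0.00 between Comp.2 and vehicle and HNRNPAB 0.01 between Comp.4 and Comp.2. Quantile normalization gave, between Comp.2 and vehicle, CLK2 0.00, HNRNPF 0.01 and HNRNPR 0.01. With 1 array left out in turn the sign turned, between Comp.4 and vehicle, for CLK2 (-0.06 to 0.09), CLK3 (-0.09 to 0.15), CLK4 (-0.06 to 0.13), HNRNPA0 (-0.09 to 0.02), HNRNPCL2 (-0.03 to 0.31) and SRSF7 (-0.02 to 0.13). It turned, between Comp.2 and vehicle, for CLK2 (-0.04 to 0.04), HNRNPA3 (-0.54 to 0.05), HNRNPF (-0.05 to 0.01), HNRNPLL (-0.04 to 0.23), HNRNPM (-0.03 to 0.06), HNRNPR (-0.06 to 0.03), SRSF11 (-0.12 to 0.07), SRSF12 (-0.17 to 0.24), SRSF3 (-0.05 to 0.00) and SRSF7 (-0.04 to 0.04). It turned, between Comp.4 and Comp.2, for CLK2 (-0.05 to 0.10), HNRNPAB (-0.05 to 0.05), HNRNPD (-0.13 to 0.00), HNRNPH3 (-0.13 to 0.02), HNRNPLL (-0.08 to 0.19), SRSF12 (-0.17 to 0.24), SRSF6 (-0.01 to 0.04), SRSF7 (-0.01 to 0.13) and TRA2A (-0.04 to 0.06). Of these genes the dim HNRNPA3, SRSF12 and HNRNPCL2 had the widest ranges, and such small differences set no direction.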
